A study of Homo sapiens with 10 samples.

Results

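The 8 genes described here, PCDH1, PCDH7, PCDH8, PCDH9, PCDH10, PCDH17, PCDH18 and PCDH19, encode non-clustered protocadherins, cell surface proteins of the cadherin family. They were taken by name from the 22848 gene symbols found in all 4 deposited expression tables. For each symbol, the row with the highest mean level on chromosomes 1 to 22 and X was read. All 8 had a locus of their own in every table, with no other symbol merged into it.

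The data are poly-A RNA-seq of WA09, an established human embryonic stem cell line, and of 4 cell types derived from it. There were 10 libraries, a pair for each of the 5 cell types, and nothing in the labels tells whether a pair came from separate cultures. Doses of the protein factors are in ng/mL. Definitive endoderm (DE) was cultured for 4 days with activin A at 100 and FGF at 8, with Wnt-3a at 25 on the first day only. Its medium had no IGF-I and no heregulin. Splanchnic mesoderm (MESO), also of 4 days, had the factors of the stem cell medium with BMP-4 at 100 and Wnt-3a at 25 added. Neural progenitor cells (NPC) were grown for 6 days with IGF-I at 200 and heregulin at 10, without FGF or activin A. They also had SB431542, an inhibitor of activin and nodal receptors, and LDN, which inhibits BMP receptors, at 500 nM. Pre-neural crest cells (NCSC) were grown for 6 days with IGF-I and heregulin at the same doses, FGF at 8, SB431542 and the GSK3 inhibitor BIO, and without activin A. The undifferentiated cells (hESC), against which each derivative was set, were kept for 4 days with FGF at 8, IGF-I at 200, heregulin at 10 and activin A at 10. DE, MESO and hESC were seeded at 50000 cells per square centimetre, and NPC and NCSC at 90000. All 5 are cultures of 1 line.

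Clustered protocadherins share a single region of chromosome 5, where cells choose among many first exons, whereas each non-clustered protocadherin is a separate gene with its own promoter. Their extracellular cadherin repeats bind mainly the same protocadherin on a neighbouring cell, more weakly than classical cadherins do, and several act in cell sorting and cell movement in the embryo and in wiring of the brain. The delta-1 members PCDH1, PCDH7 and PCDH9 carry an additional cadherin repeat and a tail that binds the phosphatase PP1-alpha. The tails of the delta-2 members PCDH10, PCDH17 and PCDH19 recruit the WAVE complex, which drives branching of actin filaments, and PCDH8 and PCDH18 belong to the same subfamily.

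The authors deposited 1 table for each derivative, holding 1 FPKM value (sequenced fragments relative to transcript length and library size, so a level per length) for the derivative and 1 for hESC. The 2 libraries of a cell type had thus been combined, and no value below has a replicate error. The change of a gene is log2(FPKM + 1) in the derivative minus that in hESC of the same table, and this scale understates the change of genes with low levels. A gene is said to have risen or fallen where the q-value in the authors' deposited table, the p-value adjusted for many tests, was below 0.05. Where the authors gave a p-value of 1 and a statistic of 0, the gene is called not tested. Read depth is unknown, and levels set side by side across tables were not tested. In bulk samples such as these, fewer cells of a type and less RNA per cell cannot be told apart.

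The labelled cell types were set against lists of marker genes. Of 5 pluripotency markers NANOG was set apart, as described below. Of the other 4, none passed in DE and all 4 fell in MESO. In NPC 3 fell and SOX2 rose, and in NCSC 3 fell. POU5F1 had 29.7 FPKM in DE, 19.9 FPKM in MESO, 0.645 FPKM in NPC and 17.1 FPKM in NCSC. Its level in hESC was 232, 217, 235 and 221 FPKM in the same order. The part of undifferentiated cells in the levels of the members was not tested. In DE, 3 of 5 endoderm markers with a locus of their own rose. In MESO, all 7 splanchnic mesoderm markers rose, and so did 4 of 5 amnion and trophoblast markers, with a summed level of 443 FPKM in MESO against 17.7 FPKM in hESC, and 3 of 4 mesenchyme markers, with 237 FPKM in MESO against 1.23 FPKM in hESC. In NPC, 5 of 6 neural progenitor markers rose. In NCSC, 3 of 9 neural crest and border markers rose (PAX3, SNAI2 and MSX1), with a summed level of 35.0 FPKM in NCSC against 14.2 FPKM in hESC. In MESO 4 of these 9 rose (PAX3, SNAI2, TFAP2A and MSX1) and 1 fell, with 172 FPKM in MESO against 13.8 FPKM in hESC, and in NPC 3 of 9 rose. SOX1, a neural progenitor marker, rose in NCSC to 9.56 FPKM against 0.284 FPKM in hESC. In NPC SOX1 rose to 5.24 FPKM against 0.302 FPKM in hESC. Of the 6 neural progenitor markers, SOX1 alone rose in NCSC. There OTX2 fell to 0.0376 FPKM against 22.5 FPKM in hESC, 1 marker did not pass and 3 were not tested. FOXD3 was listed at 0 in NCSC and fell, against 10.7 FPKM in hESC, and SOX10 had 2.91 FPKM in NCSC against 2.57 FPKM in hESC, which did not pass. PAX7 was at 0.0512 FPKM and TFAP2A at 0.0463 FPKM in NCSC, so that the defining crest markers were present only in part.

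Members of the family passed in 3 of the 4 derivatives. In DE none of the 8 members passed, beside 0.427% of the 14749 tested loci, 0.407% higher and 0.0203% lower. With so few loci of any kind passing, a missing call in DE does not show an unchanged level. There 3 members had an unadjusted p-value below 0.05 in the authors' deposited table. The share of all tested loci with such a p-value was not computed, so this count has no background to be set against. In DE 1 member (PCDH10) passed with a normal p-value computed from the deposited statistic. In MESO 3 rose (PCDH7, PCDH10 and PCDH17) and 1 fell (PCDH1), beside 14.4% of 14757 tested loci in either direction, 9.06% higher and 5.36% lower. In NPC 3 rose (PCDH17, PCDH18 and PCDH19) and 3 fell (PCDH1, PCDH8 and PCDH10), beside 36.8% of 14824 loci, 12.0% higher and 24.8% lower. In NCSC 1 rose (PCDH18) and 2 fell (PCDH1 and PCDH10), beside 30.0% of 14830 loci, 10.2% higher and 19.8% lower. Of the 32 combinations of member and comparison 13 passed, 7 higher and 6 lower, and 4 were not tested. PCDH9 passed in none of the 4 comparisons, and the other 7 members passed in at least 1.

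The median change of the 8 members was 0.17 in DE, 0.80 in MESO, 0.15 in NPC and -0.11 in NCSC. Over all tested loci the median change was 0.04 in DE, 0.06 in MESO, -0.25 in NPC and -0.22 in NCSC. With the loci under 1 FPKM in both cell types left out, the median was 0.05 in DE, 0.08 in MESO, -0.27 in NPC and -0.23 in NCSC. Changes in NPC and NCSC are therefore also given relative to these medians, which are referred to as the table median. All 4 comparisons share the hESC cell type, so their changes are not independent of each other.

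**Figure D1:**
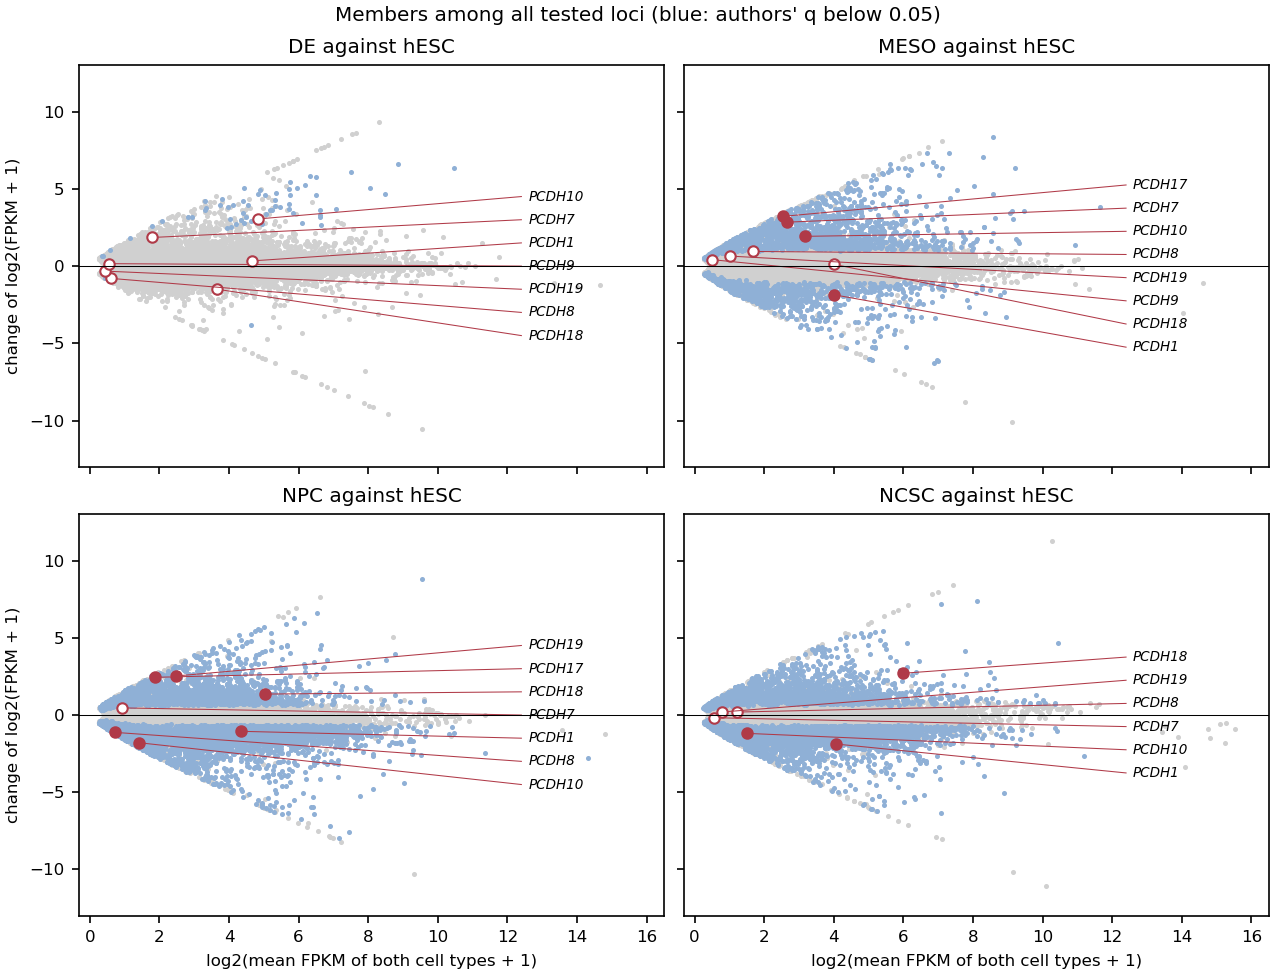
Change of log2(FPKM + 1), derivative minus hESC, plotted against mean level for all tested loci (grey, or blue where the authors' q-value was below 0.05), 1 panel per derivative. The tested members are circles, filled where called, and members that were not tested are not drawn. No member is called in DE, 4 are in MESO, 6 in NPC and 3 in NCSC, and members lie both above and below 0 in every panel.

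The promoter windows of the 5 called members of NPC that have an entry are shown, since 3 of these genes rose and 2 fell in the same comparison. RefSeq windows on GRCh38.p14, from 250 bases before to 50 after the gene start, matched 7 of the 8 members, PCDH10 having no entry. They are in another build than the tables, are given on the strand of the gene, and the start used in these cells was not measured. Capitals mark CANNTG (the E-box), GGTGTGA on either strand (a T-box site), CCAAT on either strand and TATAAA on the gene's strand. The motifs CCAAT and TATAAA were chosen after the sequences had been seen. No marked motifs overlap. PCDH17 (chr13:57631494-57631793, plus strand), PCDH18 (chr4:137532445-137532744, minus strand) and PCDH19 (chrX:100410224-100410523, minus strand) rose in NPC, and PCDH8 (chr13:52848591-52848890, minus strand) and PCDH1 (chr5:141869578-141869877, minus strand) fell:
PCDH17: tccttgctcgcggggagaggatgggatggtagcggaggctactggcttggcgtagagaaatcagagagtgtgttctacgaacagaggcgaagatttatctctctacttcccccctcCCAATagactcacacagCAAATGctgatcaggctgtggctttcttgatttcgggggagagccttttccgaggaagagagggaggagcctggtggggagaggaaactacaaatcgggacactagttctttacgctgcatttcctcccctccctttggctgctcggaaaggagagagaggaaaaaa
PCDH18: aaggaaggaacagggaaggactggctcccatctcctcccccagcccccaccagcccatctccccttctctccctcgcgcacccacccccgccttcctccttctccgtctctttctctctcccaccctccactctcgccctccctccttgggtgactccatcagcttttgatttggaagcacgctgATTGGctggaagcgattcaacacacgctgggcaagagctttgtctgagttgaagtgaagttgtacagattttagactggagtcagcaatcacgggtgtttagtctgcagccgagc
PCDH19: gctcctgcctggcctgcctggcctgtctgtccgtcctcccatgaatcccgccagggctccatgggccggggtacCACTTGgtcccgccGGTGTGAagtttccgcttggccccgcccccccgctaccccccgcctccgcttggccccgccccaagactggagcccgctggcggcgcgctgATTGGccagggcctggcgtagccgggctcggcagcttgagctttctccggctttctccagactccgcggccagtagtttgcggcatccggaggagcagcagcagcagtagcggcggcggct
PCDH8: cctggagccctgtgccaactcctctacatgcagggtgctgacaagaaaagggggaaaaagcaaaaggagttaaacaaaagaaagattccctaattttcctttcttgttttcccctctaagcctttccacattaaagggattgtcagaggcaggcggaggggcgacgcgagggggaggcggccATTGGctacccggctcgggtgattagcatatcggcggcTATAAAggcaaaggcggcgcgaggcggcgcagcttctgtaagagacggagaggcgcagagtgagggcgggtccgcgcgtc
PCDH1: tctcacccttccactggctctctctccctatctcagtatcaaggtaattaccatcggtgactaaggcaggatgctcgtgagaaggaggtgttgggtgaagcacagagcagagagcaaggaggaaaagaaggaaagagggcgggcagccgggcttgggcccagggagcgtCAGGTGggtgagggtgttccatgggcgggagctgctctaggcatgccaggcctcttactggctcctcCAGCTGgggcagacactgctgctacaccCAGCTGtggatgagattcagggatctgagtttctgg

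CCAAT was found in 6 of the 7 windows, PCDH1 being the exception, and in 34.6% of all 35116 promoter windows. CANNTG was found in 3 of the 7 (PCDH1 with 3 matches, PCDH17 and PCDH19 with 1 each), and in 68.7% of all. GGTGTGA was found in PCDH19 and in 3.45% of all, and TATAAA in PCDH8 and in 7.33% of all. The number of CpG dinucleotides ran from 6 in PCDH1 to 26 in PCDH19, with a median of 14 over all windows, and 4 of the 7 were above that. CCAAT was shared by windows of genes that rose and of a gene that fell in NPC. These matches describe letters in the windows only.

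The summed level of the 8 genes was 87.7 FPKM in DE, 59.8 FPKM in MESO, 73.1 FPKM in NPC and 119 FPKM in NCSC, against 44.2 to 49.7 FPKM in the 4 hESC columns. The genes that supplied it differed between cell types. In DE PCDH10 made up 56.7% of the sum and PCDH1 30.7%. In MESO no member held more than 26.4%, the share of PCDH18, and PCDH10 (22.2%), PCDH7 (16.9%), PCDH17 (15.8%) and PCDH1 (9.96%) followed. In NPC PCDH18 held 62.4%, PCDH1 16.7%, PCDH19 11.7% and PCDH17 7.10%. In NCSC PCDH18 alone held 91.8%. In hESC PCDH1 held 45.8% to 54.8% and PCDH18 33.0% to 37.8%. At least 1 FPKM was reached by 4 members in DE, 7 in MESO, 5 in NPC and 3 in NCSC, and by 3 or 4 in hESC. With no replicate values, neighbours in these orders cannot be said to differ. The 4 hESC columns are values of the same 2 libraries, per the labels, so their spread shows how far a level moved between tables and not how far cultures differ. The highest was 1.86 times the lowest for PCDH10 (2.76 to 5.12 FPKM) and 1.81 times for PCDH9 (0.211 to 0.381 FPKM), and 1.17 to 1.32 times for the other 6.

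**Figure D2:**
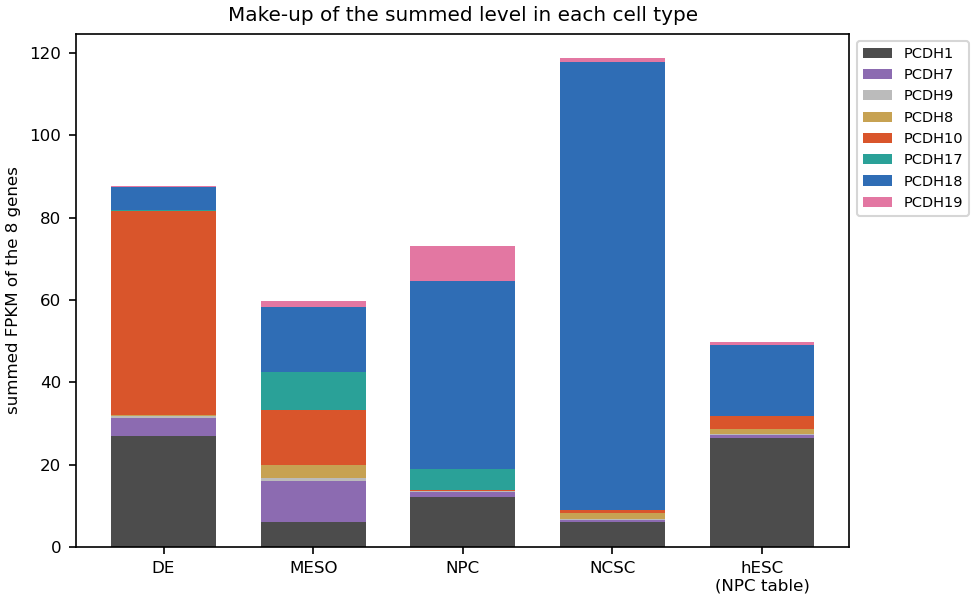
Stacked bars of the FPKM of the 8 members in DE, MESO, NPC, NCSC and hESC (hESC as given in the NPC table). PCDH10 fills most of the DE bar and PCDH18 most of the NCSC bar, while the MESO bar is divided among 5 or more genes.

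**Figure D3:**
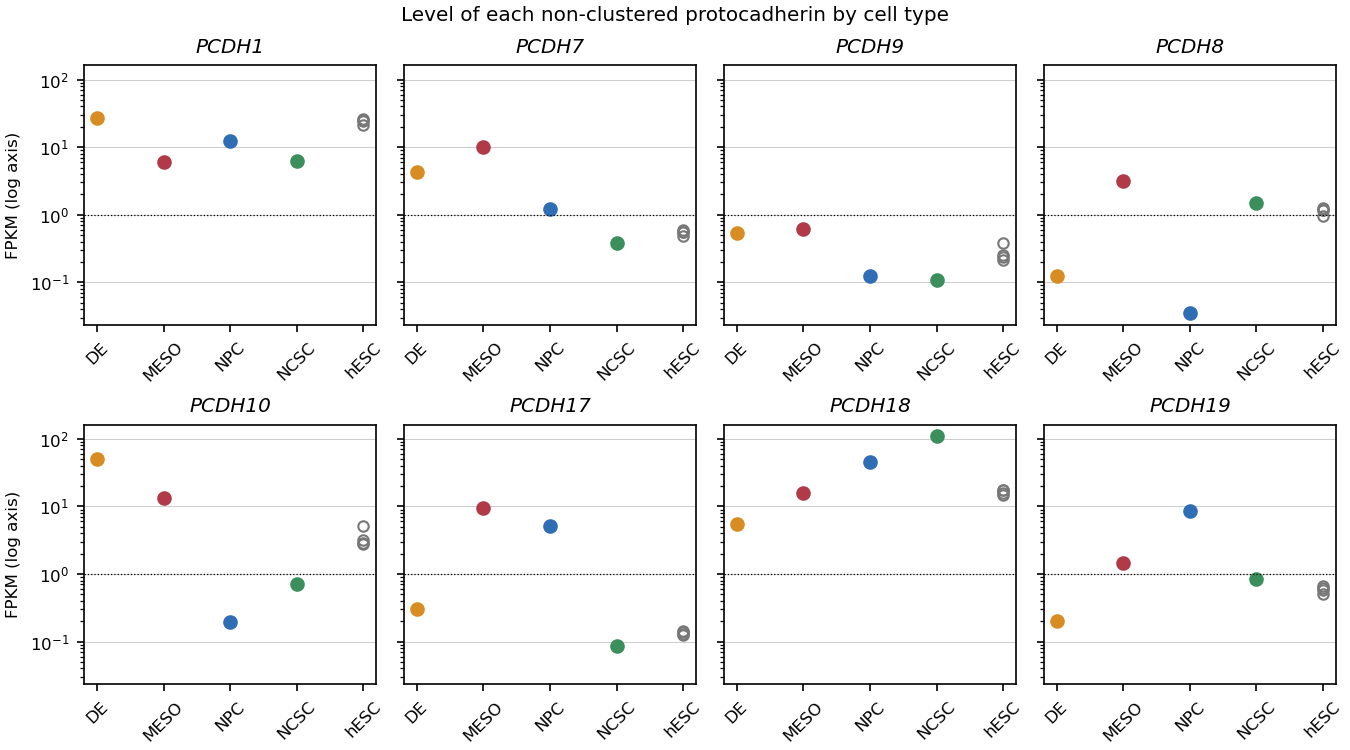
Level of each member in FPKM on a log axis, 1 panel per gene, in DE, MESO, NPC, NCSC and hESC; the hESC points are the 4 columns of the 4 tables, and the dotted line marks 1 FPKM. The 4 hESC points of each gene lie close together, and the members differ in which derivative is highest.

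Among the delta-1 genes, PCDH1 was the one above 1 FPKM in the stem cells. PCDH1, known from airway epithelium, had 26.9 FPKM in DE, 5.96 FPKM in MESO, 12.2 FPKM in NPC and 6.14 FPKM in NCSC, against 21.1, 24.2, 26.5 and 25.2 FPKM in hESC of the same tables. DE was the one derivative not below hESC. PCDH1 fell in MESO by 1.86, in NPC by 1.06 and in NCSC by 1.88 on the log2 scale, which is 4.06-fold, 2.17-fold and 4.11-fold lower in FPKM. Relative to the table median the change was -0.78 in NPC and -1.65 in NCSC. The q-values in the authors' deposited tables were 0.000868 in MESO, 0.00179 in NPC and 0.000455 in NCSC, and 0.999 in DE, where the change was 0.33. In the NCSC table PCDH1 has 2 rows, of which the one with the higher level was read.

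PCDH7 was low in stem cells and high in mesoderm. The frog counterpart of PCDH7, NF-protocadherin, acts in adhesion of embryonic ectoderm. PCDH7 had 4.36 FPKM in DE, 10.1 FPKM in MESO, 1.20 FPKM in NPC and 0.385 FPKM in NCSC, against 0.488, 0.547, 0.599 and 0.564 FPKM in hESC. It rose in MESO by 2.84 on the log2 scale, or 18.5-fold in FPKM, with q = 0.000868 in the authors' deposited table. In DE it was 8.94-fold higher, with q = 0.239 in the authors' deposited table, which did not pass. The changes in NPC (0.46) and NCSC (-0.18) did not pass either. In MESO, KDR, a receptor of mesoderm and endothelium, rose to 55.9 FPKM against 6.75 FPKM in hESC, the other 4 of 5 endothelial and blood markers did not pass or were not tested, and PECAM1 was at 0.0701 FPKM. Their part in PCDH7, and that of the amnion and mesenchyme markers above, was not tested.

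PCDH9 stayed below 1 FPKM throughout. PCDH9, best known from the brain, had 0.540 FPKM in DE, 0.616 FPKM in MESO, 0.122 FPKM in NPC and 0.109 FPKM in NCSC, against 0.381, 0.211, 0.253 and 0.234 FPKM in hESC. Its changes in DE and MESO did not pass, and it was not tested in NPC and NCSC. Whether it changed there was not detectable from these tables.

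PCDH8 was lowest in NPC among the 5 cell types. PCDH8 is the paraxial protocadherin of the gastrula, where in frog and zebrafish embryos it acts in convergence of mesoderm cells and in mouse marks segmenting mesoderm. Its level was 0.122 FPKM in DE, 3.18 FPKM in MESO, 0.0349 FPKM in NPC and 1.51 FPKM in NCSC, against 0.953, 1.17, 1.25 and 1.19 FPKM in hESC. It fell in NPC by 1.12 on the log2 scale, or by 0.85 relative to the table median, with q = 0.0314 in the authors' deposited table. In MESO it was 2.72-fold higher and in DE 7.81-fold lower, and with q-values of 0.152 in MESO and 0.913 in DE in the authors' deposited tables neither passed.

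PCDH10 moved in opposite directions among the derivatives. PCDH10, also called OL-protocadherin, takes part in axon growth in the mouse forebrain. It had 49.7 FPKM in DE, 13.3 FPKM in MESO, 0.194 FPKM in NPC and 0.720 FPKM in NCSC, against 5.12, 2.76, 3.14 and 2.92 FPKM in hESC. DE and MESO were above hESC, and NPC and NCSC were below it. The added factors, the days of culture and the seeding density differ together between these pairs and cannot be told apart. PCDH10 rose in MESO by 1.92 on the log2 scale (4.81-fold in FPKM, q = 0.00466 in the authors' deposited table). It fell in NPC by 1.79 (16.2-fold, q = 0.000860) and in NCSC by 1.19 (4.05-fold, q = 0.00701 in the authors' deposited table). Relative to the table median the change was -1.52 in NPC and -0.96 in NCSC. In DE the change of 3.05, a 9.70-fold higher level, had q = 0.0512 in the authors' deposited table and did not pass. The hESC value of the DE table was the highest of the 4. With a normal p-value computed from the deposited statistic in place of the authors' p-value, DE passed (adjusted p = 0.00156) and NCSC did not (adjusted p = 0.0584), while MESO (adjusted p = 0.0492) and NPC (adjusted p = 0.000369) still passed. Such p-values called 1.23% of loci in DE, 7.90% in MESO, 22.4% in NPC and 16.0% in NCSC. The difference in direction between derivatives was not tested.

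PCDH17 was low in stem cells and rose in 2 derivatives. PCDH17 is known from synapses and axons of the mouse brain, where its tail recruits the WAVE complex. It had 0.300 FPKM in DE, 9.44 FPKM in MESO, 5.19 FPKM in NPC and 0.0852 FPKM in NCSC, against 0.144, 0.123, 0.140 and 0.131 FPKM in hESC. It rose in MESO by 3.22 on the log2 scale and in NPC by 2.44 (2.71 relative to the table median), which is 76.6-fold and 36.9-fold in FPKM. The q-value in the authors' deposited table was 0.000868 in MESO and 0.000323 in NPC. DE and NCSC were not tested. Of 7 splanchnic mesoderm markers, 7 rose in MESO, and in NPC 4 did not pass and 3 were not tested. Their part in the level of PCDH17 was not tested.

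PCDH18 rose in NPC and NCSC and had the highest value of the 8 members in both. PCDH18 binds the adaptor Dab1 in the mouse, and its zebrafish counterpart acts on WAVE and motor axons. Its level was 5.55 FPKM in DE, 15.8 FPKM in MESO, 45.6 FPKM in NPC and 109 FPKM in NCSC, against 17.5, 14.6, 17.2 and 15.9 FPKM in hESC. It rose in NPC by 1.35 on the log2 scale (1.63 relative to the table median) and in NCSC by 2.70 (2.93), which is 2.65-fold and 6.85-fold in FPKM. The q-value in the authors' deposited table was 0.000323 in NPC and 0.000455 in NCSC. In DE the level was 3.14-fold lower, with q = 0.455 in the authors' deposited table. In MESO it was 1.08-fold higher, and this sign turned with quantile normalization (-0.10) and with hESC of the other 3 tables (-0.09). PCDH18 had its highest level in NCSC, where the crest markers were present in part, and the part of other cell types in it was not tested. The added factors, the days of culture and the seeding density differ together between NCSC and hESC and cannot be told apart.

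PCDH19 was highest in NPC, with 8.53 FPKM. PCDH19, mutated in an epilepsy of early childhood, forms complexes with N-cadherin and is known from neural progenitors and neurons. It had 0.202 FPKM in DE, 1.46 FPKM in MESO, 8.53 FPKM in NPC and 0.847 FPKM in NCSC, against 0.508, 0.574, 0.654 and 0.614 FPKM in hESC. It rose in NPC by 2.53 on the log2 scale (2.80 relative to the table median, 13.1-fold in FPKM), with q = 0.000323 in the authors' deposited table. In MESO it was 2.55-fold higher with q = 0.131 in the authors' deposited table. In DE and NCSC it did not pass. In NPC 2 of 5 neuron markers rose (DCX to 2.82 FPKM and STMN2 to 2.91 FPKM, against 0.895 and 0.671 FPKM in hESC). ELAVL3 and TUBB3 fell, and NEUROD1 was at 0.0219 FPKM. The summed level of the 5 neuron markers was 43.5 FPKM in NPC against 140 FPKM in hESC. Their part in PCDH17 and PCDH19 was not tested.

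**Figure D4:**
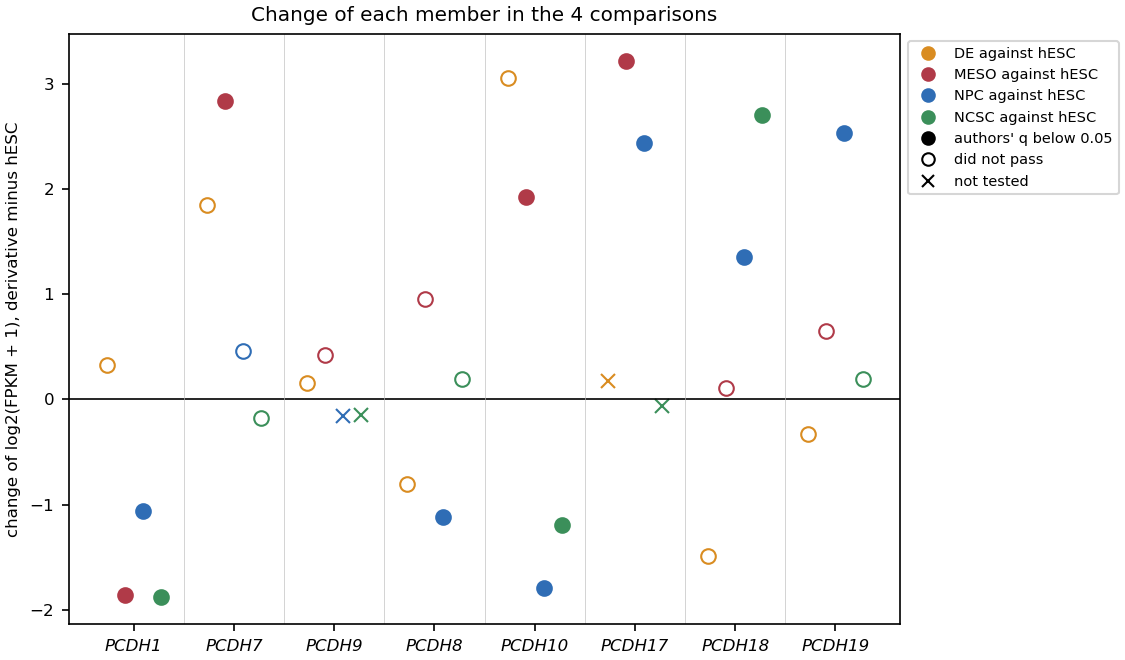
Change of log2(FPKM + 1), derivative minus hESC, for the 8 members in DE, MESO, NPC and NCSC, filled where the authors' q-value was below 0.05, open where it was not and crossed where not tested. PCDH1 lies below 0 in MESO, NPC and NCSC, PCDH10 lies above 0 in DE and MESO and below 0 in NPC and NCSC, and PCDH18 reaches 2.70 in NCSC.

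The Euclidean distance between the 4 changes of 2 members ranged from 1.5 (PCDH9 and PCDH8) to 7.0 (PCDH10 and PCDH18), with a median of 3.77 over the 28 pairs. By the same measure over 13911 symbols with at least 1 FPKM in a cell type, the genes nearest to PCDH1 were RAB3B at a distance of 0.23, PLEKHG4 and PRKAR1B. Nearest to PCDH7 were TMEM100 (0.48), EYA2 and GAB2, and to PCDH8 DUSP2 (0.42), GRHL3 and RBPMS. Nearest to PCDH10 were LEPREL1 (0.91), ARHGAP40 and LIFR, and to PCDH17 SNORA2A (0.64), ID2 and NOS2. Nearest to PCDH18 were LOC643401 (0.68), RAB33A and BCL6, and to PCDH19 LRRC4 (0.48), FLJ42709 and LOC100132215. Each distance covers 4 values that share hESC.

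The gene models of the members share a large exon. In GENCODE 29 on GRCh38, the longest coding transcript of each gene has a coding exon of 2147 to 3216 bases, holding 59.2% (PCDH1) to 100% (PCDH7) of the coding sequence. It is the first coding exon in 7 of the 8 genes, and the exception is PCDH1, where it is coding exon 3. An exon as large is found in 1.14% to 3.18% of 19698 genes. The loci of the tables (hg19, as in the NPC table) lie on chromosomes 4, 5, 13 and X. PCDH1 lies on chromosome 5 from 141229618 to 141257944, PCDH7 on chromosome 4 from 30722030 to 31148423, and PCDH19 on chromosome X from 99546642 to 99665271. PCDH8 spans 4667 bases on chromosome 13 from 53418109 to 53422775, and PCDH9 927503 bases on the same chromosome from 66876966 to 67804468. PCDH10 (chromosome 4, 134070470 to 134112732) and PCDH18 (138439971 to 138453910) lie 4.33 Mb apart, with 1 single-symbol locus of at least 1 FPKM between them, PABPC4L. These neighbours moved in opposite directions in NPC and NCSC. PCDH8 and PCDH17 (chromosome 13, 58205789 to 58303065) lie 4.78 Mb apart with none between them, and in NPC PCDH8 fell while PCDH17 rose.

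Other members of the protocadherin family were set beside the 8. None of the 4 other non-clustered genes PCDH11X, PCDH12, PCDH15 and PCDH20 passed in any of the 4 comparisons, but 2 of them were not tested in DE and 3 in each of MESO, NPC and NCSC, and PCDH12 and PCDH15 were tested in none. The median change of the 4 was 0.02 in DE, 0.07 in MESO, 0.06 in NPC and -0.16 in NCSC. PCDH20 had 2.76 FPKM in DE against 0.380 FPKM in hESC, which did not pass. PCDH11X has 14 rows in the NCSC table, and the row read there, with 62.7 FPKM in NCSC against 98.3 FPKM in hESC, stands far above its levels in the other tables and is uncertain. PCDH11X also has a near-identical copy on the Y chromosome.

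The beta genes of the clustered family are single-exon genes whose reads can be split among near-identical copies. In NPC 9 of the 13 beta genes with a locus of their own rose and none fell (median change 0.94), beside 12.0% of all tested loci higher and 24.8% lower. In NCSC 8 of 16 rose and none fell (median 0.62), beside 10.2% higher and 19.8% lower. None of 16 passed in DE (median -0.05), where 9 were not tested, or in MESO (median 0.12), where 7 were not tested. The difference between the derivatives was not tested. PCDHB10 had 5.68 FPKM in NPC against 0.642 FPKM in hESC, and 3.20 FPKM in NCSC against 0.598 FPKM in hESC. PCDHB2 had 22.7 FPKM in NPC against 7.21 FPKM in hESC, and 19.8 FPKM in NCSC against 6.77 FPKM in hESC. PCDHB16 had 3.20 FPKM in NPC against 0.238 FPKM in hESC, and 3.05 FPKM in NCSC against 0.221 FPKM in hESC. The merged locus of 22 gamma cluster symbols rose in MESO to 75.8 FPKM, against 20.4 FPKM in hESC, and in NPC to 74.6 FPKM, against 22.2 FPKM in hESC. In the NCSC table the gamma symbols are merged otherwise, and a locus of 11 rose to 109 FPKM, against 13.6 FPKM in hESC, while a locus of 7 did not pass. No merged locus of alpha cluster symbols passed in any comparison.

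**Figure D5:**
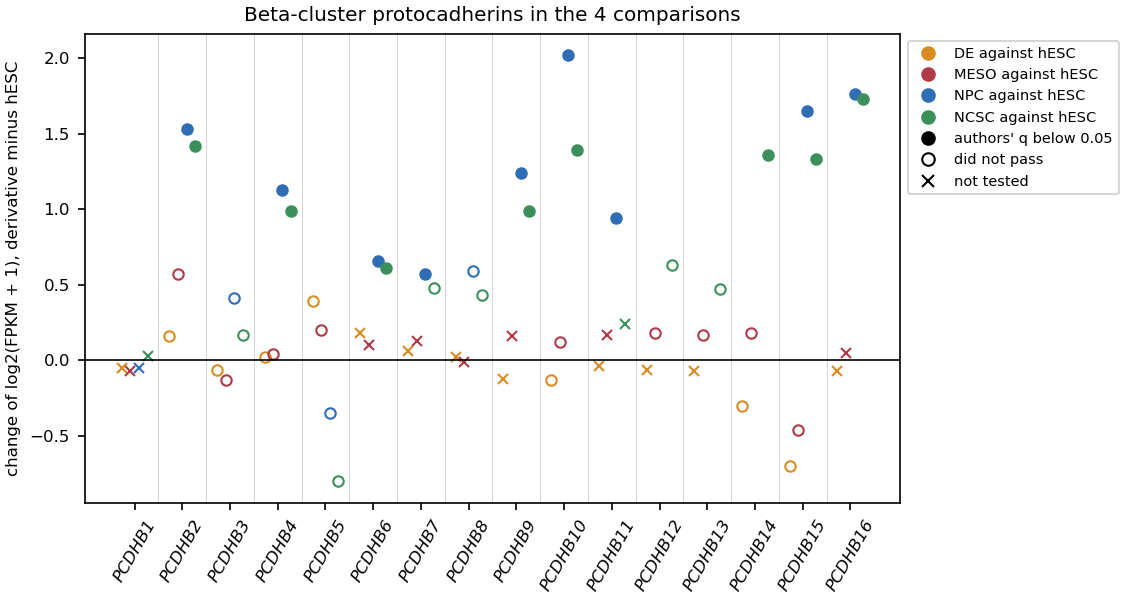
Change of log2(FPKM + 1), derivative minus hESC, of the 16 beta-cluster genes in DE, MESO, NPC and NCSC, filled where the authors' q-value was below 0.05, open where it was not and crossed where not tested. PCDHB12, PCDHB13 and PCDHB14, merged in the NPC table, have no NPC point; NPC and NCSC lie above 0 for all genes drawn except PCDHB5 in both and PCDHB1 in NPC, and DE and MESO lie between -0.70 and 0.57.

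Of the genes reported as partners of the members, CDH2, the N-cadherin that pairs with PCDH19, rose in all 4 derivatives. It had 247 FPKM in DE, 70.8 FPKM in MESO, 127 FPKM in NPC and 39.0 FPKM in NCSC, against 17.9, 14.0, 17.3 and 15.7 FPKM in hESC. CDH11, another classical cadherin, rose in MESO to 77.2 FPKM against 1.97 FPKM in hESC, in NPC to 40.5 FPKM against 2.38 FPKM in hESC, and in NCSC to 5.26 FPKM against 2.30 FPKM in hESC. SMAD3, a transducer of activin signals that PCDH1 binds, rose in MESO, NPC and NCSC (13.5, 12.9 and 12.3 FPKM, against 4.68, 5.58 and 4.96 FPKM in hESC). PPP1CA, the PP1-alpha bound by delta-1 tails, fell in NPC to 55.0 FPKM against 118 FPKM in hESC, and in NCSC to 61.9 FPKM against 111 FPKM in hESC. SET, which PCDH7 binds, fell in NPC to 126 FPKM against 306 FPKM in hESC, and in NCSC to 138 FPKM against 285 FPKM in hESC. FZD7, a Wnt receptor that frog PCDH8 binds, fell in MESO to 25.8 FPKM against 104 FPKM in hESC, and in NPC to 58.9 FPKM against 116 FPKM in hESC. By count, 1 of 9 rose and none fell in DE, and 3 of 8 rose and 1 fell in MESO. In NPC 3 of 8 rose and 3 fell, and in NCSC 3 of 9 rose and 2 fell. Over all tested loci, 0.407% rose and 0.0203% fell in DE, and 9.06% rose and 5.36% fell in MESO. The shares were 12.0% and 24.8% in NPC, and 10.2% and 19.8% in NCSC. The median changes were 0.28 in DE, 0.19 in MESO, 0.39 in NPC and -0.03 in NCSC.

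Of the 11 genes of the WAVE complex, none passed in DE or MESO. In NPC 2 rose and 1 fell, beside 12.0% of all tested loci higher and 24.8% lower. In NCSC 3 rose and 1 fell, beside 10.2% higher and 19.8% lower. Taken in either direction, these counts are near the background of 36.8% in NPC and 30.0% in NCSC. The split by direction was not tested. The median changes were 0.06 in DE, 0.08 in MESO, 0.48 in NPC and 0.22 in NCSC. Over all tested loci they were 0.04, 0.06, -0.25 and -0.22 in the same order. WASF3, an activator of actin branching, rose in NPC to 51.2 FPKM against 9.60 FPKM in hESC, and in NCSC to 32.5 FPKM against 9.41 FPKM in hESC. WASF1 rose in NPC, and ABI2 and CYFIP2 rose in NCSC. NCKAP1, another subunit of the complex, fell in NPC to 42.7 FPKM against 81.2 FPKM in hESC, and in NCSC to 43.7 FPKM against 75.5 FPKM in hESC.

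Of 7 genes, the FAT and Dachsous cadherins with their kinase FJX1, none passed in DE and none fell in any comparison. In MESO 2 rose, in NPC 2 and in NCSC 1. Over all tested loci, 0.427% passed in DE, and 9.06% rose and 5.36% fell in MESO. The shares were 12.0% and 24.8% in NPC, and 10.2% and 19.8% in NCSC. The median changes were -0.28 in DE, 0.20 in MESO, 0.19 in NPC and -0.10 in NCSC. FJX1, a kinase of the secretory pathway that acts on these cadherins in the fly, rose in MESO to 14.5 FPKM against 2.72 FPKM in hESC, and in NPC to 39.4 FPKM against 2.94 FPKM in hESC. DCHS1 rose in MESO (8.30 FPKM against 2.93 FPKM in hESC) and FAT1 in NPC (48.5 FPKM against 24.8 FPKM in hESC), while FAT2 rose in NCSC (0.580 FPKM against 0.138 FPKM in hESC).

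Of 15 factors of the primitive streak and paraxial mesoderm, the tissues in which PCDH8 is best known, 2 rose in DE. They were EOMES (158 FPKM in DE against 1.85 FPKM in hESC) and LHX1 (39.2 FPKM in DE against 1.18 FPKM in hESC). GSC (83.8 FPKM in DE against 0.776 FPKM in hESC) and MIXL1 (57.4 FPKM against 1.88 FPKM) were higher and did not pass. DLL1 (0.754 FPKM in DE against 6.53 FPKM in hESC) and LFNG (2.63 FPKM against 10.6 FPKM) were lower and did not pass. In MESO MSGN1 rose, to 0.943 FPKM against a value listed at 0 in hESC, and DLL3 and LFNG fell. In NPC DLL1 (99.6 FPKM in NPC against 5.29 FPKM in hESC) and LFNG rose, and DLL3 and MIXL1 fell. In NCSC DLL1 rose, and T, DLL3 and MIXL1 fell. Over all tested loci, 0.407% rose and 0.0203% fell in DE, and 9.06% rose and 5.36% fell in MESO. The shares were 12.0% and 24.8% in NPC, and 10.2% and 19.8% in NCSC. The median changes of the 15 were 0.00 in DE, -0.09 in MESO, -0.06 in NPC and -0.21 in NCSC. PCDH8 itself passed in NPC alone among the 4 comparisons, and the difference between comparisons was not tested.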

How the data were processed

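The deposited values are the authors' FPKM, 1 per cell type and table, with a signed test statistic (a score of derivative against hESC), a p-value and a q-value computed by the authors, per the file headers. Cufflinks 2.2.1, featureCounts, Subread 1.5.2, TopHat2 2.0.13 and the build hg19 are listed in the submitters' processing notes, with no role stated. The way in which the 2 libraries were combined and any common scaling of the tables were not given in the sources used here. Rows were reduced to chromosomes 1 to 22 and X with 1 row per symbol. Merged loci were kept out of the lists, and 18 symbols, none of them a member, were set apart by rules chosen after seeing the data: opposite signs of FPKM ratio and score, an FPKM with over 6 digits, or, at a mean of at least 20 FPKM, a log2 ratio over score below 0.4 of its table's median. Locus starts, which count from 0 in the tables, are printed from 1.

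Calls used the authors' q-value below 0.05, with a pseudocount of 1 FPKM for changes. limma had been planned for values per library and could not be run, and planned protein features were not computed. The normal p-value step was tested on simulated data. All members were named. From each of 6 lists, called genes were taken up to 4 per comparison by size of change, or the 2 highest where none was called, though some of these are not printed. For each called member the 3 genes nearest in change were named. The members and lists were chosen with earlier results of these data known. The scripts ran in Python 3.11.15 with numpy 2.4.6, pandas 2.3.3, scipy 1.17.1 and matplotlib 3.10.9.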

Additional observations from a re-analysis of the deposited data

Results flagged for a closer look

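PCDH10 stood out because its change against hESC had opposite signs among the derivatives: 1.92 in MESO, -1.79 in NPC and -1.19 in NCSC on the log2(FPKM + 1) scale. It had 13.3 FPKM in MESO, 0.194 FPKM in NPC and 0.720 FPKM in NCSC, against 2.76, 3.14 and 2.92 FPKM in hESC. Each of these changes passed the authors' q-value, but the difference between the derivatives was not tested, since the tables hold 1 value per cell type.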

How the results depend on the processing

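Each member's change was recomputed with pseudocounts of 0.1 and 5 FPKM, centring on the table median, quantile normalization, the hESC mean of the other 3 tables, normal p-values from the deposited statistic and a minimum of 1 FPKM, and counts also with all deposited rows. Of 210 recomputed changes, 202 kept their direction and side of the threshold, as did 62 of 64 counts within 1.5 times. These totals were largely fixed in advance. The authors' q-value was carried over in every setting but the normal p-value, so only that setting could move a change across the threshold. There 26 changes kept their side, 1 gained a call and 1 lost it. Pseudocounts, the normal p-value and the 1 FPKM minimum could not turn a direction. PCDH18 in MESO turned to -0.10 under quantile normalization and -0.09 with hESC of the other tables. Centring turned PCDH9 in NPC to 0.11, and PCDH7, PCDH9 and PCDH17 in NCSC to 0.05, 0.08 and 0.17. None of these 5 had passed. With normal p-values PCDH10 in DE (3.05) passed, so that 1 member rose in DE in place of 0, and PCDH10 in NCSC (-1.19) no longer passed, so that 1 member fell in NCSC in place of 2. The cause was not tested. Normal p-values could be computed only for loci with a usable statistic. They called 180 of 14644 such loci in DE, 1155 of 14617 in MESO, 3279 of 14634 in NPC and 2338 of 14651 in NCSC. The authors' q-values called 63 loci in DE, 2128 in MESO, 5457 in NPC and 4447 in NCSC. Those counts are over all tested loci, including loci without a usable statistic. No paired analysis was possible because the tables hold 1 value per cell type, and leaving out a library could not be run for the same reason. Read depth is unknown, so the precision of levels below 1 FPKM cannot be given.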

Other observations

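LECT1, the gene nearest to PCDH8 on the lower side with at least 1 FPKM, at a distance of 0.104 Mb, had 6.13 FPKM in DE, 4.73 FPKM in MESO, 1.53 FPKM in NPC and 3.38 FPKM in NCSC, against 68.8, 101, 114 and 110 FPKM in hESC. LECT1 fell in MESO, NPC and NCSC, and in DE its change did not pass. PCDH8 fell in NPC, and its change in DE, 0.122 FPKM against 0.953 FPKM in hESC, did not pass, and the difference between the genes was not tested. SLC7A11, the cystine transporter gene 0.495 Mb above PCDH18, rose in NCSC to 21.7 FPKM against 12.2 FPKM in hESC, and DACH1, 4.21 Mb above PCDH9, rose in NPC to 19.3 FPKM against 0.342 FPKM in hESC. These neighbours were named after their values were seen. Some other neighbours passed as well. PABPC4L, between PCDH10 and PCDH18, rose in MESO to 6.70 FPKM against 2.32 FPKM in hESC, where PCDH10 also rose. DIAPH3, on the higher side of PCDH17, fell in NPC and NCSC, and LOC442459, 0.352 Mb from PCDH19, fell in NPC. Whether these changes are linked to those of the members was not tested. LOC729080 at 0.0172 Mb and ARAP3 at 0.168 Mb from PCDH1 did not pass in any of the 4 comparisons. Neither did STIM2 beside PCDH7 or C4orf33 beside PCDH10. TNMD at 0.175 Mb from PCDH19 did not pass in DE and NPC and was not tested in MESO and NCSC.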
